A study of Homo sapiens with 12 samples.

Results

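SREBF1, SREBF2, INSIG1, HMGCS1, IDI1, FDFT1, SQLE and SCD are 8 genes of the sterol-responsive lipid pathway, and they were taken by their exact symbols from 2 expression tables of 23621 gene rows each. All 8 were active, meaning above 1 FPKM in at least 1 of the 12 libraries, as were 14251 genes in all. FPKM is a read level divided by transcript length and by the number of reads mapped. RNA-seq was carried out on KURAMOCHI (Ku) and COV362 (Cov), 2 human ovarian cancer cell lines, after 6 hr with DMSO, the vehicle, or with THZ1, a covalent inhibitor of the transcriptional kinases CDK7, CDK12 and CDK13, at 50 nM or 250 nM. Each of the 6 groups had 2 libraries, given as biological duplicates, and each line is a single established culture. All cells of both lines, controls included, were untransduced. Ku cells were grown in RPMI and Cov cells in DMEM, each with fetal bovine serum and antibiotics. The comparisons ask how far the transcripts of this pathway fall with dose of THZ1, and whether its members fall alike.

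Cells make cholesterol from acetyl-CoA through the mevalonate pathway, and they also take it up from lipoproteins. When sterols in the endoplasmic reticulum are scarce, the precursors of the transcription factors SREBP-1 and SREBP-2, encoded by SREBF1 and SREBF2, are escorted to the Golgi by SCAP, cut by 2 proteases and sent to the nucleus, where they turn on the genes of sterol and fatty acid synthesis. INSIG1 holds the SCAP and SREBP complex in the endoplasmic reticulum when sterols are plentiful, and its gene is itself an SREBP target with a short-lived transcript.

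Promoters are shown because SREBP proteins bind sterol regulatory elements close to the start of their target genes, together with NF-Y at CCAAT boxes. Of the 8 genes, 6 matched the RefSeq promoter table (build GRCh38.p14), and SQLE and FDFT1 did not. The 250 bases before the start are printed for a regulator, SREBF2, for INSIG1 and HMGCS1, whose log2 fold changes at 250 nM were larger in size, and for SCD, whose was smaller in both lines. HMGCS1 has 2 start sites in the table, and the window printed, chosen after its matches were seen, is the one further upstream. Windows are SREBF2 chr22:41832855-41833104 (plus strand), INSIG1 chr7:155297628-155297877 (plus), HMGCS1 chr5:43313413-43313662 (minus) and SCD chr10:100346983-100347232 (plus), each written 5′ to 3′ along the gene. Capitals mark the sterol regulatory element TCACNCCAC, the CCAAT box (CCAAT, or ATTGG on the other strand) and the E-box CACGTG, each searched on both strands.
SREBF2: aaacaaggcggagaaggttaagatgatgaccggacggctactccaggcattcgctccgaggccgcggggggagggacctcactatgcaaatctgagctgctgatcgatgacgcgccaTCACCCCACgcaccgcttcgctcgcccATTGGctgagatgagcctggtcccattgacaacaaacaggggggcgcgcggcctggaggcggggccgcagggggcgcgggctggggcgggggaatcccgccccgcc
INSIG1: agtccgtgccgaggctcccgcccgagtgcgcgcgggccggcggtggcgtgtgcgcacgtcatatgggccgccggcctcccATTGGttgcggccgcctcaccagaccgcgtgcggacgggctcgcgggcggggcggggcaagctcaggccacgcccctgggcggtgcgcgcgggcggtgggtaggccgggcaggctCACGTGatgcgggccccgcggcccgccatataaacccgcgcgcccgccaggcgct
HMGCS1: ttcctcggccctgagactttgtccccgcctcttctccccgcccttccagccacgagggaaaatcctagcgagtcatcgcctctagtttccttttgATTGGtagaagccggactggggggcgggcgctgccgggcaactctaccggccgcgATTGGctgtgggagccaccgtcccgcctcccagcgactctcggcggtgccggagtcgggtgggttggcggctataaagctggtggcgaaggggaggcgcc
SCD: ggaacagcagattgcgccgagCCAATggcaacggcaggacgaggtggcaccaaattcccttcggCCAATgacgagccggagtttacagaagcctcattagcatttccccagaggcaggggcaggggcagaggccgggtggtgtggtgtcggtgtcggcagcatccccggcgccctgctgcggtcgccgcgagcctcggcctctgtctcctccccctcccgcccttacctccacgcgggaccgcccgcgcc
SREBF2 held TCACNCCAC 133 bases before its start, and a CCAAT box at 106 bases. INSIG1 held a CCAAT box at 170 bases and an E-box at 55 bases, HMGCS1 CCAAT boxes at 155 and 100 bases, and SCD CCAAT boxes at 229 and 186 bases. Of the windows not printed, that of SREBF1, the other HMGCS1 window and 1 of 3 IDI1 windows held none of the 3 motifs, and the other IDI1 windows held CCAAT boxes only. Over such windows of 250 bases TCACNCCAC was found in 0.883% of 35116 promoters, the CCAAT box in 32.0% and the E-box in 6.34%. Of 58 such windows at 41 genes of the lipid lists used here, 1.72% held TCACNCCAC, 51.7% the CCAAT box and 10.3% the E-box. A match is a string of letters in a window and no measurement of binding, and no match says nothing about a factor.

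The tables pair values with symbols only, so the positions here are those of the GENCODE annotation lifted to GRCh37, the same assembly as the hg19 build used for alignment. SREBF1 (ENSG00000072310) lies at chr17:17713713-17740316 on the minus strand and SREBF2 (ENSG00000198911) at chr22:42229109-42303310 on the plus strand. INSIG1 (ENSG00000186480) spans chr7:155089486-155101945, HMGCS1 (ENSG00000112972) chr5:43287572-43313614, IDI1 (ENSG00000067064) chr10:1085092-1095059, FDFT1 (ENSG00000079459) chr8:11653082-11696904, SQLE (ENSG00000104549) chr8:126010739-126034525 and SCD (ENSG00000099194) chr10:102106990-102124583. All 8 are protein-coding. Exons of SREBF1 overlap RAI1 on the opposite strand, and exons of IDI1 overlap IDI2-AS1, a long non-coding RNA with its own row. Exons of SREBF2 (SREBF2-AS1), HMGCS1 (ENSG00000261604) and FDFT1 (ENSG00000255046) likewise overlap long non-coding RNAs on the opposite strand, which have no row under those names. The library kit keeps strand, but whether counting used it is not given in the sources used here, so reads from those overlaps could be shared. SREBF1 and SREBF2 also carry the microRNA genes MIR33B and MIR33A in introns. Both microRNA rows sat at the most frequent value of every one of the 12 libraries, that of rows without signal.

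The values are FPKM that had been normalized to ERCC spike-ins, synthetic RNAs added to RNA in proportion to cell number, so a fall in all genes together is kept rather than scaled away. In bulk RNA, fewer cells of a type and less RNA per cell cannot be told apart. Read depth is unknown. The tables hold no zeros, and rows without signal share a floor between 0.0783 and 0.119 FPKM, far under the lowest value of any of the 8 genes, 1.84 FPKM. The lowest Pearson's r between replicates, over active genes, was 0.968 and the highest 0.983. Of 8 markers of serous ovarian cancer, 7 were above 1 FPKM in DMSO in each line (MUC16 was near the floor in Ku and WT1 below 1 in Cov). Of 4 leukocyte markers 1 was above 1 FPKM in Ku DMSO libraries (CD14, at 1.19 and 1.43) and 0 in Cov, with CD3E at the floor in both lines. Of 3 endothelial markers 2 were above 1 in Ku and 1 in Cov (CDH5, between 7.50 and 8.67 FPKM over both lines), and of 4 fibroblast markers 1 in Ku and 2 in Cov (COL1A2, at 40.4 and 44.1). From DMSO to 250 nM the summed level in Cov went from between 43.9 and 47.7 to between 21.3 and 24.9 FPKM for the fibroblast list and from between 8.43 and 8.95 to between 3.44 and 3.63 for the endothelial list, and in Ku from between 2.91 and 3.13 to between 1.22 and 1.40 and from between 10.3 and 11.8 to between 6.74 and 6.92. The serous ovarian cancer list also went down, from between 4792 and 5031 to between 2262 and 2379 FPKM in Ku and from between 3485 and 3893 to between 1683 and 1950 in Cov. The leukocyte sum lay between 0.554 and 2.06 FPKM in all these libraries. The part of other cells in the results was not tested. A log2 fold change is the difference between group means of log2(FPKM + 1), which understates the change of low genes, and were tested with limma within each line. A gene was called at a Benjamini-Hochberg adjusted p under 0.001 over all active genes and a log2 fold change beyond 0.5. An exact permutation test of a single gene with 2 libraries against 2 cannot give a two-sided p under 0.33. The same DMSO libraries serve both doses, and the tables of the 2 lines were normalized separately, so differences between lines were not tested.

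On the spike-in scale most of the 8 genes fell with dose, furthest INSIG1, the sterol-sensing brake, and SQLE, squalene epoxidase. At 250 nM INSIG1 was left at 10.7% of its DMSO mean in Ku and 10.3% in Cov, and SQLE at 16.9% and 10.6%. SREBF2, which encodes the main activator of these genes, was left at 58.7% and 49.5%, and SCD, the stearoyl-CoA desaturase, at 70.1% and 58.8%. In Ku cells 0 of the 8 were called lower at 50 nM, where 11.3% of active genes were. There 6 of 8 fell at an unadjusted p under 0.05, where 61% of active genes did. At an adjusted p under 0.05 with a log2 fold change below -0.5, 5 of 8 were lower, against 40.2% of active genes. At 250 nM 7 of 8 were called lower in Ku, against 68.6% of active genes. In Cov cells 7 of 8 were called lower at 50 nM, against 70.5% of active genes, and 7 of 8 at 250 nM, against 84%. Whether these shares differ from those of all active genes was not tested. The Cov count at 50 nM was 4 without DMSO replicate 1 and 2 without DMSO replicate 2, where the share of active genes called went down as well, to 48.4% and 30.3%. No member was called higher at 50 nM or 250 nM against DMSO by limma, and 0 of 8 rose at an unadjusted p under 0.05, where 0.0842% and 0.0491% of active genes were called higher in Ku and 0.0772% and 0.105% in Cov. At that unadjusted threshold 1.46% and 0.182% of active genes rose in Ku and 0.4% and 0.309% in Cov. When libraries were instead scaled to one another the counts changed: equal medians gave 1 lower and 4 higher in Ku and 2 lower and 3 higher in Cov at 250 nM, and median-of-ratios scaling 2 lower and 1 higher in each line. Of active genes 11.6% were called lower and 26.9% higher in Ku under equal medians, and 11.3% and 26.4% in Cov. Under median-of-ratios scaling 19% were lower and 11.1% higher in Ku, and 18.9% and 8.57% in Cov.

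**Figure D1:**
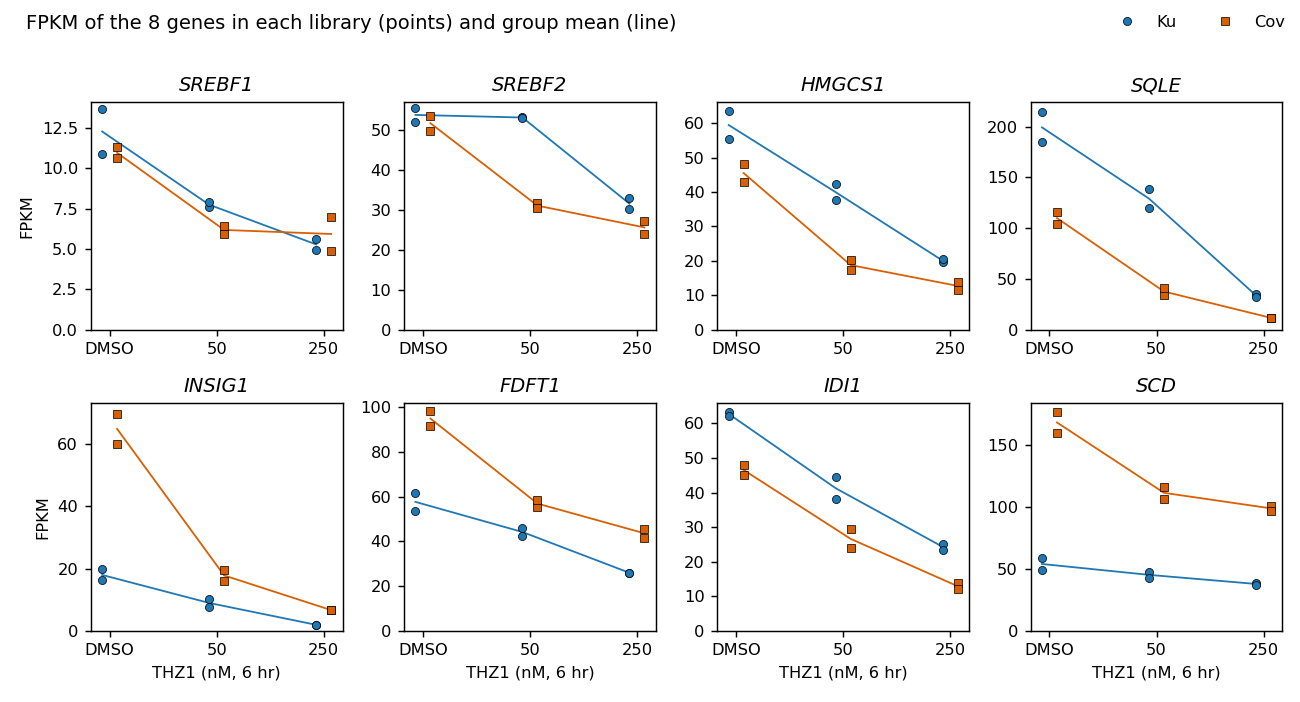
Spike-in normalized FPKM of each gene (linear axis from 0) in DMSO and at 50 nM and 250 nM THZ1. Each point is 1 library, circles Ku and squares Cov, and lines join the means of 2 libraries. SQLE and INSIG1 drop furthest, while SREBF2 in Ku is level from DMSO (53.7 FPKM) to 50 nM (53.1) and SCD keeps most of its level; under both scalings to other transcripts SREBF1, SREBF2, FDFT1 and SCD turn positive at 250 nM.

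Of the regulators, SREBF2 is the more abundant here, and SREBP-2 acts chiefly on cholesterol genes. In Ku cells SREBF2 stood at 55.4 and 52.1 FPKM in DMSO, 53.2 and 53.0 at 50 nM and 32.9 and 30.1 at 250 nM. The 50 nM libraries lay inside the DMSO range, and the 250 nM libraries below it. The log2 fold change was -0.02 ± 0.07 (SE) at 50 nM (95% interval -0.19 to 0.16, adjusted p = 0.859), and 88.6% of active genes had a lower one. At 250 nM it was -0.75 ± 0.07 (adjusted p = 0.000116), a call that was lost without 250 nM replicate 2 (adjusted p = 0.00132). In Cov cells SREBF2 stood at 49.8 and 53.5 FPKM in DMSO, 31.6 and 30.5 at 50 nM and 24.1 and 27.1 at 250 nM. Here both doses lay below both DMSO libraries, with log2 fold changes of -0.72 ± 0.09 (adjusted p = 0.000243) and -0.99 ± 0.09 (adjusted p = 2.74e-05). The call at 50 nM was lost without either DMSO library (adjusted p = 0.00127 and 0.00266).

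SREBF1 gives rise to SREBP-1a and SREBP-1c, the latter tied to fatty acid synthesis, and the rows do not separate these isoforms. Its levels in Ku were 13.7 and 10.9 FPKM in DMSO, 7.57 and 7.91 at 50 nM and 4.96 and 5.59 at 250 nM. Both doses lay below DMSO without overlap, but the DMSO replicates differed from each other by more than the 50 nM or 250 nM replicates did. The log2 fold change was -0.60 ± 0.14 at 50 nM (adjusted p = 0.0145, not called) and -1.07 ± 0.14 at 250 nM (adjusted p = 0.000489). The latter call was lost when any of 5 of the 6 Ku libraries was left out, all but DMSO replicate 2, with adjusted p between 0.00134 and 0.0051. In Cov cells SREBF1 had 10.6 and 11.3 FPKM in DMSO, 6.42 and 5.93 at 50 nM and 4.86 and 6.99 at 250 nM. The 250 nM libraries straddled those at 50 nM and were both below DMSO. Neither dose was called in Cov (-0.74 ± 0.15, adjusted p = 0.00268, and -0.80 ± 0.15, adjusted p = 0.00152). Leaving out either 250 nM library brought the 50 nM value past the threshold, and leaving out either 50 nM library or 250 nM replicate 2 did so for the 250 nM value (adjusted p between 0.000233 and 0.000591).

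INSIG1 showed the most marked dose dependence among the regulators. In Ku cells it was at 19.8 and 16.2 FPKM in DMSO, 10.3 and 7.65 at 50 nM, and 1.998 and 1.84 at 250 nM. The 3 groups were apart from one another with no overlap. The log2 fold change was -0.94 ± 0.17 at 50 nM (adjusted p = 0.00584, not called) and -2.69 ± 0.17 at 250 nM (adjusted p = 2.66e-05), and only 6.10% of active genes had a lower value at 250 nM. Because INSIG1 ends near 2 FPKM, the pseudocount shrinks that value: the ratio of mean FPKM was 9.36-fold. In Cov cells INSIG1 was more abundant, with 60.1 and 69.8 FPKM in DMSO, 16.0 and 19.6 at 50 nM and 6.77 and 6.54 at 250 nM. Again no groups overlapped. Its log2 fold change was -1.81 ± 0.12 at 50 nM (adjusted p = 2.55e-05), the lowest of the 8 genes, with 3.56% of active genes lower still. It was -3.10 ± 0.12 at 250 nM (adjusted p = 9.62e-07, 9.76-fold by mean FPKM), with 2.61% lower still.

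SQLE performs the first oxygenation of sterol synthesis, turning squalene into its epoxide and is regarded as a rate-limiting step. It was the most abundant of the 8 transcripts in Ku DMSO libraries, at 214 and 184 FPKM, with 138 and 119.9 at 50 nM and 35.5 and 31.9 at 250 nM. The 3 doses were again fully apart. The log2 fold change was -0.62 ± 0.11 at 50 nM (adjusted p = 0.00483, not called) and -2.53 ± 0.11 at 250 nM (adjusted p = 9.96e-06, 5.91-fold by mean FPKM). In Cov cells SQLE measured 104 and 116 FPKM in DMSO, 34.4 and 40.7 at 50 nM, and 11.97 and 11.3 at 250 nM. Its fall there was already -1.53 ± 0.11 at 50 nM (adjusted p = 2.73e-05) and reached -3.13 ± 0.11 at 250 nM (adjusted p = 8.16e-07, 9.44-fold by mean FPKM). Among active genes 7.96% had a lower log2 fold change than SQLE at 250 nM in Ku, and 2.45% in Cov.

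HMGCS1, IDI1 and FDFT1 are earlier enzymes of the same route, and their log2 fold changes were smaller in size than that of SQLE in every comparison with DMSO. In Ku at 50 nM, though, SQLE (-0.62 ± 0.11), IDI1 (-0.60 ± 0.09) and HMGCS1 (-0.56 ± 0.10) did not differ beyond the SE. HMGCS1, the cytosolic HMG-CoA synthase, gave 63.6 and 55.4 FPKM in Ku DMSO libraries, 42.3 and 37.6 at 50 nM and 19.5 and 20.6 at 250 nM. In Cov cells it gave 43.0 and 48.0, 17.4 and 20.2, and 13.8 and 11.7 FPKM. No HMGCS1 libraries of different doses overlapped in either line. The log2 fold changes were -0.56 ± 0.10 (adjusted p = 0.00473) and -1.52 ± 0.10 (adjusted p = 2.67e-05) in Ku. They were -1.24 ± 0.12 (adjusted p = 7.53e-05) and -1.76 ± 0.12 (adjusted p = 5.87e-06) in Cov, where the 50 nM call was lost without DMSO replicate 2 (adjusted p = 0.00102).

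IDI1, isopentenyl diphosphate isomerase, had 63.3 and 62.2 FPKM in Ku DMSO libraries, 44.4 and 38.1 at 50 nM and 25.2 and 23.4 at 250 nM. In Cov cells it had 45.1 and 47.9, 23.9 and 29.3, and 13.8 and 12 FPKM. Doses were apart in both lines, with the widest replicate gap at 50 nM. The log2 fold changes were -0.60 ± 0.09 (adjusted p = 0.00286, not called) and -1.33 ± 0.09 (adjusted p = 3.14e-05) in Ku, and -0.79 ± 0.12 (adjusted p = 0.000587) and -1.78 ± 0.12 (adjusted p = 5.95e-06) in Cov. The Cov call at 50 nM was lost without DMSO replicate 1 or 2 or 50 nM replicate 1 (adjusted p between 0.0016 and 0.00557).

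FDFT1, squalene synthase, commits the route to sterols. Its FPKM were 61.6 and 53.7 in Ku DMSO libraries, 46.1 and 42.3 at 50 nM and 26.0 and 25.9 at 250 nM. Cov libraries had 91.7 and 98.1, 55.4 and 58.4, and 45.7 and 41.5 FPKM. FDFT1 libraries did not overlap between doses in either line, and 250 nM left 45.0% of the DMSO mean in Ku and 45.9% in Cov. The log2 fold changes were -0.37 ± 0.09 (adjusted p = 0.0144, not called) and -1.12 ± 0.09 (adjusted p = 5.48e-05) in Ku, and -0.73 ± 0.09 (adjusted p = 0.00018) and -1.11 ± 0.09 (adjusted p = 1.17e-05) in Cov. The Cov call at 50 nM was lost without DMSO replicate 2 (adjusted p = 0.00185).

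SCD introduces the double bond of oleate and palmitoleate, and its log2 fold change at 250 nM was the smallest in size of the 8 in Ku. In Cov it lay beside that of SREBF1, from which it did not differ beyond the SE, and the order of the pair turned without 250 nM replicate 1 (SCD -0.79, SREBF1 -0.58). In Ku cells it stood at 58.8 and 48.9 FPKM in DMSO, 47.8 and 42.4 at 50 nM and 38.9 and 36.6 at 250 nM. The DMSO replicates were about as far from each other as the lower one was from the 250 nM libraries. The Ku log2 fold changes of -0.25 ± 0.11 (adjusted p = 0.101) and -0.50 ± 0.11 (adjusted p = 0.00531) were not called. In Cov cells SCD stood at 159 and 177 FPKM in DMSO, 107 and 116 at 50 nM and 100.6 and 96.8 at 250 nM. Those groups did not overlap. Both Cov values were called, at -0.59 ± 0.09 (adjusted p = 0.000534) and -0.76 ± 0.09 (adjusted p = 9.84e-05). The call at 50 nM was lost when any 1 of the 6 Cov libraries was left out (adjusted p between 0.001 and 0.00453). At 250 nM 82.5% of active genes in Ku and 80.0% in Cov had a lower log2 fold change than SCD.

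**Figure D2:**
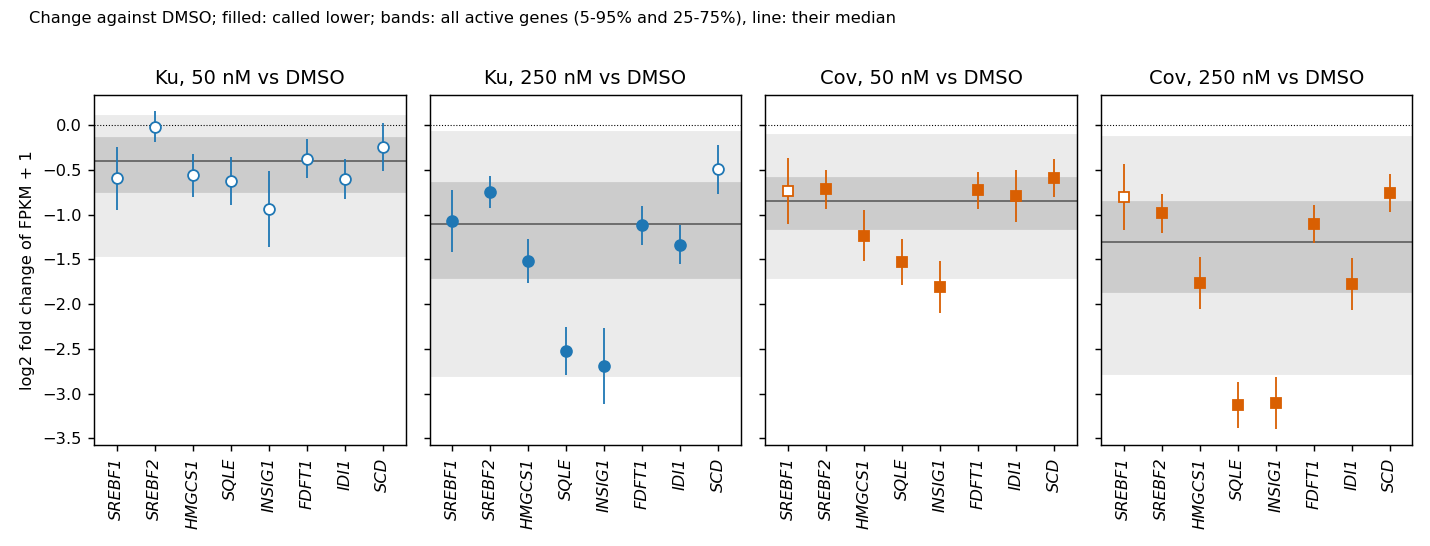
Log2 fold change of FPKM + 1 against DMSO for the 8 genes, with 95% intervals from limma, in 4 comparisons. Filled points were called lower, and the grey bands hold the middle 90% and 50% of all 14251 active genes, whose median is the grey line. INSIG1 and SQLE lie below the median of active genes while SREBF2 and SCD lie above the median in each panel; on scales set to other transcripts SREBF1, SREBF2, FDFT1 and SCD turn positive at 250 nM.

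Both treated libraries lay below both DMSO libraries for 7 of 8 members in Ku at 50 nM, all but SREBF2, where 75.8% of active genes did so. For the other comparisons with DMSO all 8 did, against 95.9% of active genes in Ku at 250 nM, 95.7% in Cov at 50 nM and 95.6% at 250 nM. Between the doses, 6 of 8 were called lower at 250 nM than at 50 nM in Ku, all but SREBF1 and SCD, against 36% of active genes. That count fell to 1 without 50 nM replicate 1 or either 250 nM library, where between 5.55% and 7.17% of active genes were called, and to 2 without 50 nM replicate 2, where 11.2% were. In Cov cells SQLE (-1.61 ± 0.11, adjusted p = 5.94e-05), INSIG1 (-1.29 ± 0.12, adjusted p = 0.000178) and IDI1 (-0.98 ± 0.12, adjusted p = 0.000519) were called, 3 of 8 against 24.4% of active genes. The count was 2 without either DMSO or either 250 nM library, the IDI1 call being the one lost, with between 10.7% and 15.4% of active genes called. SREBF1 (-0.07, 95% interval -0.43 to 0.30) was at much the same level at both doses in Cov. By limma 0 of 8 were called higher at 250 nM than at 50 nM, and 0 of 8 had an unadjusted p under 0.05 with a rise, where 0.0421% of active genes in Ku and 0.0842% in Cov were called higher.

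The order of the 8 levels, in FPKM and so per length, was rearranged. In Ku DMSO libraries SQLE led at a mean of 199 FPKM, INSIG1 (18.0) and SREBF1 (12.3) were lowest, and the 5 others lay between 53.7 and 62.7 FPKM, with neighbours in that order overlapping in their libraries. At 250 nM SCD (37.8 ± 1.6, SD, n = 2), SQLE (33.7 ± 2.6) and SREBF2 (31.5 ± 2.0) headed the order with neighbouring values, SQLE and SREBF2 overlapping in their libraries, and INSIG1 was lowest in both libraries. In Cov cells SCD led at every dose, with SQLE next in DMSO at 109.9 ± 8.2 FPKM. By 250 nM SQLE (11.6 ± 0.5 FPKM) ranked below FDFT1, SREBF2, IDI1 and HMGCS1 in both libraries, though its 2 values overlapped those of HMGCS1. IDI1 (12.9 ± 1.3) and HMGCS1 (12.7 ± 1.5) did not differ beyond their spread there, nor did INSIG1 (6.66 ± 0.16) and SREBF1 (5.93 ± 1.5).

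Ratios between genes in the same library do not change when a whole library is scaled by a single factor. Each member was therefore set against SREBF2, and these ratios are given as values with no test. Whether the spike-in normalization used a single factor per library is not given in the sources used here. SQLE stood at 3.70 ± 0.23 (SD, n = 2) times the SREBF2 level in Ku DMSO libraries, 2.43 ± 0.24 at 50 nM and 1.07 ± 0.02 at 250 nM. In Cov cells the SQLE ratio went from 2.13 ± 0.05 to 1.21 ± 0.17 and 0.458 ± 0.056. The 3 doses did not overlap in either line. INSIG1 went from 0.334 ± 0.032 times SREBF2 to 0.169 ± 0.034 and 0.0609 ± 0.0003 in Ku, a 5.48-fold lower ratio at 250 nM. In Cov cells INSIG1 went from 1.26 ± 0.07 to 0.575 ± 0.097 and 0.261 ± 0.028, or 4.80-fold lower. These ratios too were apart at every dose. HMGCS1 went from 1.11 to 0.638 times SREBF2 in Ku and from 0.880 to 0.502 in Cov at 250 nM. SCD went from 1.00 ± 0.09 in DMSO to 0.849 ± 0.070 at 50 nM and 1.20 ± 0.02 at 250 nM in Ku, and from 3.25 ± 0.07 to 3.59 ± 0.31 and 3.88 ± 0.43 in Cov. In Ku both 50 nM libraries were thus below DMSO and both 250 nM libraries above it, while in Cov both doses were above DMSO. IDI1 went from 1.17 ± 0.04 to 0.771 ± 0.008 in Ku and from 0.900 ± 0.008 to 0.508 ± 0.093 in Cov at 250 nM, without overlap. FDFT1 (1.07 ± 0.06 to 0.824 ± 0.050) and SREBF1 (0.228 ± 0.027 to 0.168 ± 0.025) were also lower at 250 nM in Ku without overlap. In Cov both overlapped between DMSO and 250 nM, FDFT1 at 1.84 ± 0.01 and 1.71 ± 0.26 and SREBF1 at 0.212 ± 0.001 and 0.230 ± 0.039. The members thus changed unequally within the same libraries.

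**Figure D3:**
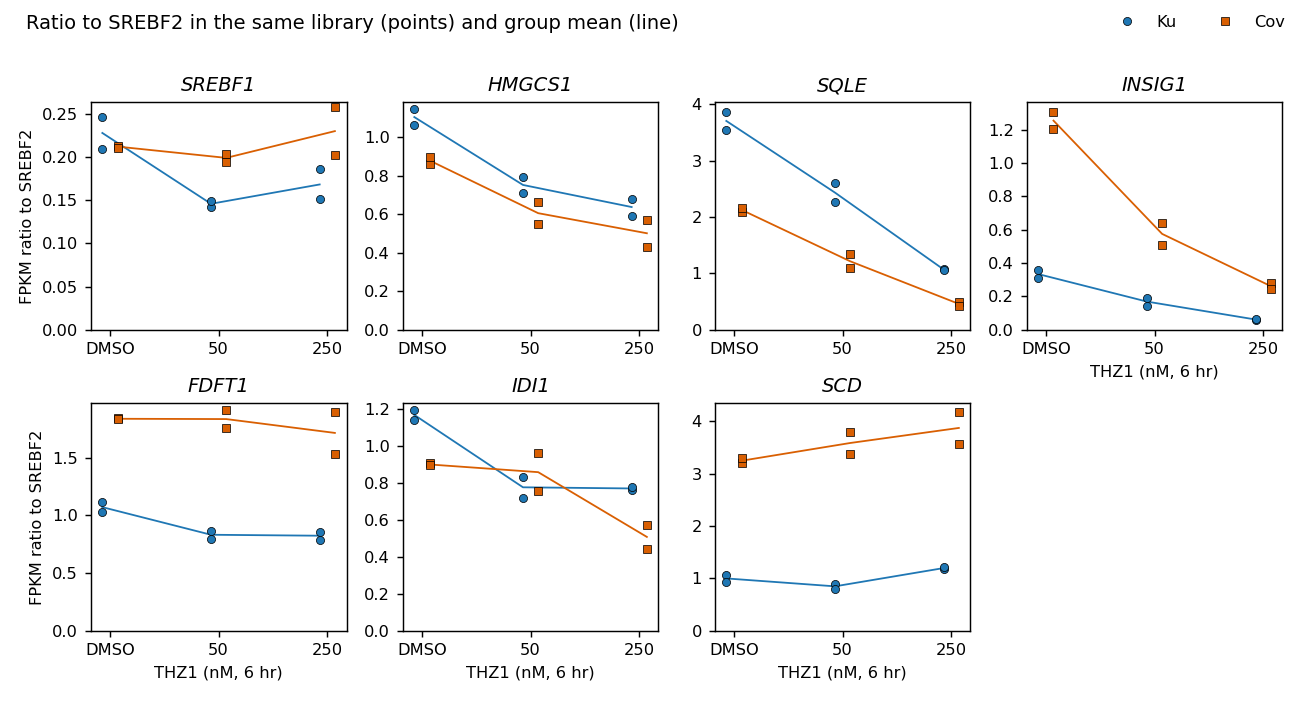
FPKM of 7 genes divided by that of SREBF2 in the same library (linear axis from 0), by THZ1 dose, circles Ku and squares Cov, lines joining means of 2 libraries. SQLE and INSIG1 drop at each step of dose in both lines, and the SCD ratio is higher at 250 nM than in DMSO. Scaling of a whole library by a single factor cancels in these ratios.

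The median active gene also fell on the spike-in scale, by 0.40 in Ku at 50 nM and by 1.11 at 250 nM on the log2 scale, and by 0.85 and 1.31 in Cov. Median-of-ratios scaling, which sets the typical gene near no change, puts the members relative to other transcripts. Under it INSIG1 was lower at 250 nM by limma, at -1.50 ± 0.12 in Ku (adjusted p = 0.000212) and -1.58 ± 0.08 in Cov (adjusted p = 6.73e-05). SQLE was lower too, at -1.09 ± 0.08 (adjusted p = 0.000193) and -1.57 ± 0.06 (adjusted p = 5.06e-05). SCD was higher, at 0.93 ± 0.07 (adjusted p = 0.000173) in Ku and 0.84 ± 0.04 (adjusted p = 6.66e-05) in Cov. The values of SREBF2 were 0.67 ± 0.08 (adjusted p = 0.00103) and 0.58 ± 0.08 (adjusted p = 0.00193), short of the threshold. HMGCS1 stood at -0.10 and -0.22, IDI1 at 0.09 and -0.23, neither called, nor were FDFT1 (0.30 and 0.48) and SREBF1 (0.22 and 0.63). Scaling to equal medians, which left the median log2 fold change of active genes at 0.29 in Ku and 0.31 in Cov, kept the INSIG1 calls (-1.06 and -1.15) and the SCD calls (1.44 and 1.30). Under it SREBF2 was also called higher in both lines (1.19, adjusted p = 0.000286, and 1.03, adjusted p = 0.000304), as were FDFT1 in both (0.81, adjusted p = 0.000232, and 0.94, adjusted p = 0.000111) and SREBF1 in Ku (0.69, adjusted p = 0.00093), while SREBF1 in Cov (1.03, adjusted p = 0.00312), HMGCS1 (0.41 and 0.23) and IDI1 (0.60 and 0.21) were not called. SQLE was then -0.57 in Ku (adjusted p = 0.00425, not called) and -1.13 in Cov (adjusted p = 8.06e-05).

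To see the 8 genes among their pathway, 43 further genes of SREBP processing, sterol and fatty acid synthesis, sterol uptake and sterol export were read from lists, of which 42 were active. In Ku cells 2 of the 42 were called lower at 50 nM, the mevalonate pathway kinases MVK (-1.55 ± 0.13, adjusted p = 0.000484) and PMVK (-0.62 ± 0.07, adjusted p = 0.000891), against 11.3% of active genes, and 30 of 42 fell at an unadjusted p under 0.05, against 61% of active genes at that threshold. Leaving out any 1 of the 6 Ku libraries gave 0 of 42, with between 0.0421% and 0.919% of active genes called. At 250 nM 36 of 42 were called lower in Ku, against 68.6% of active genes, with a median log2 fold change of -1.07. That count was 19 without either 250 nM library, where 42.7% and 44.3% of active genes were called. In Cov cells 35 of 42 were called lower at 50 nM, against 70.5% of active genes, and 37 of 42 at 250 nM, against 84%, with medians of -0.82 and -1.21, and the 50 nM count was 12 without DMSO replicate 2, against 30.3%. The medians of all active genes were -1.11 in Ku at 250 nM, and -0.85 and -1.31 in Cov. In both lines at 250 nM 33 of 42 were called, or 78.6%, as were 6 of the 8 members and 64.6% of active genes. By limma 0 of 42 were called higher at either dose, where 0.0842% (50 nM) and 0.0491% (250 nM) of active genes were in Ku and 0.0772% and 0.105% in Cov. At an unadjusted p under 0.05 a rise was seen for 1 of 42 at 50 nM in each line, against 1.46% of active genes in Ku and 0.4% in Cov. At 250 nM 0 of 42 rose at that threshold, against 0.182% and 0.309%. Under equal medians 2 of 42 were called lower in Ku and 3 in Cov at 250 nM, with 21 and 19 called higher, where 26.9% and 26.4% of active genes were called higher and 11.6% and 11.3% lower. Under median-of-ratios scaling 4 and 7 were called lower and 7 and 7 higher at 250 nM, where 19% and 18.9% of active genes were lower and 11.1% and 8.57% higher, and 1 (MYLIP) was called higher in Ku at 50 nM, where 0.519% of active genes were.

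Among 20 enzymes of the mevalonate and sterol route, HMGCS1, IDI1, FDFT1 and SQLE included, 20 were called lower in Ku and 19 in Cov at 250 nM, 19 of them in both lines, where 68.6% of active genes in Ku, 84% in Cov and 64.6% in both lines were. The median log2 fold changes were -1.32 and -1.37, beside -1.11 and -1.31 for all active genes. In what follows log2 fold changes at 250 nM are given for Ku and then for Cov. MVK fell (-2.37 and -2.48), as did HSD17B7, which reduces a sterol ketone (-1.92 and -2.61). MSMO1, the methylsterol monooxygenase, fell too (-1.32 and -2.07). At the other end LSS, lanosterol synthase, fell in Ku (-0.92) and was not called in Cov (-0.56, adjusted p = 0.00195).

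Of the 7 genes of SREBP processing, which include SREBF1, SREBF2 and INSIG1, 7 were called lower in Ku at 250 nM and 6 in Cov, against 68.6% and 84% of active genes. INSIG2, which acts as INSIG1 does, fell (-1.78 and -2.89), and so did MBTPS2, one of the SREBP proteases (-1.45 and -2.29). SCAP, the escort, fell (-1.09 and -0.91). TMEM97, an endoplasmic reticulum protein of sterol transport, fell at 250 nM (-1.71 and -2.09). In the uptake and transport list 3 of 6 active genes were called in Ku at 250 nM and 5 of 6 in Cov. NPC2, the lysosomal cholesterol carrier, was not called in Ku (-0.26, adjusted p = 0.0186), and LPL was near the floor there. STARD4, a soluble sterol carrier, was called in neither line (-1.01 and -0.76).

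In the fatty acid synthesis list of 11, SCD included, 8 were called lower in Ku and 9 in Cov at 250 nM, with medians of -0.82 and -0.93. These counts stand near the 68.6% and 84% of active genes called. ELOVL6, an elongase, fell (-1.70 and -1.84). FASN, the fatty acid synthase, fell in Ku (-1.24) and was not called in Cov (-0.68, adjusted p = 0.00165). FADS2, a desaturase like SCD, was not called in Ku (-0.56, adjusted p = 0.00331) and fell in Cov (-0.68), while ACACA, acetyl-CoA carboxylase, was not called in Ku (-0.93, adjusted p = 0.00148) and fell in Cov (-1.19). ME1, which supplies NADPH, fell in Ku (-0.70) and was not called in Cov (-0.75, adjusted p = 0.00143). Of 6 genes of sterol export and LXR, the oxysterol receptor, 5 were called lower in each line at 250 nM, all but ABCG1, which was at 1.83 FPKM in Ku and 0.499 FPKM in Cov DMSO libraries. MYLIP, an LXR-induced ubiquitin ligase, had values above 0 at 50 nM that were not called (0.44, adjusted p = 0.017, in Ku and 0.29, adjusted p = 0.0307, in Cov), and fell at 250 nM (-1.53 and -0.91). Under median-of-ratios scaling MYLIP at 50 nM was 0.95 ± 0.07 in Ku (adjusted p = 0.00082), called higher, and 1.01 ± 0.12 in Cov (adjusted p = 0.00254), not called, and under equal medians 1.08 (adjusted p = 0.00105) and 1.12 (adjusted p = 0.0018), not called. At 50 nM in Ku limma called 0 genes of the SREBP processing, fatty acid, uptake and export lists, of which 7, 11, 6 and 6 genes were active, where 11.3% of active genes were called lower. At an unadjusted p under 0.05 these lists had 5, 8, 2 and 2 falls, against 61% of active genes. These are spike-in scaled values, and under scaling to other transcripts INSIG2, MVK and HSD17B7 stayed below 0 at 250 nM in both lines, ELOVL6 was not told from 0 under equal medians (-0.10 ± 0.10, adjusted p = 0.371 in Ku, and -0.019 ± 0.062, adjusted p = 0.794 in Cov) and lay below 0 under median-of-ratios scaling (-0.53, adjusted p = 0.00426, and -0.42, adjusted p = 0.00293), FASN, FADS2, ACACA, ME1, LSS, SCAP, NPC2 and STARD4 turned positive, and MSMO1, TMEM97, MBTPS2 and MYLIP did so in some settings only.

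**Figure D4:**
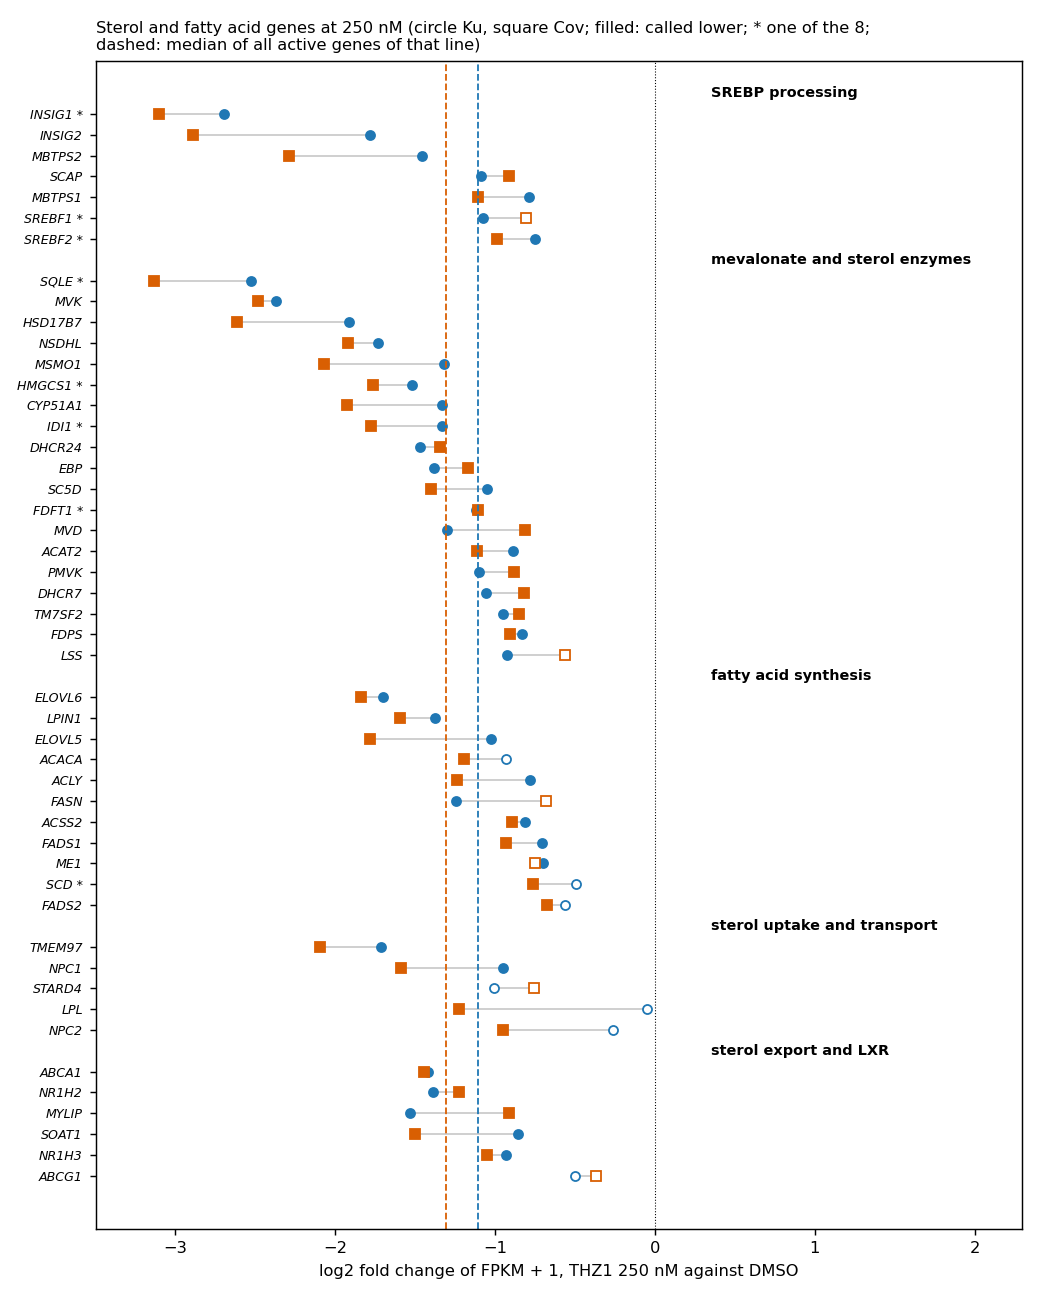
Log2 fold change of FPKM + 1 at 250 nM THZ1 against DMSO for 40 active genes and the 8 members from 5 lists, circles Ku and squares Cov, filled where called lower, with an asterisk at each of the 8 genes and dashed lines at the median of all active genes in each line (-1.11 Ku, -1.31 Cov). On this scale INSIG1 and SQLE lie furthest left of the genes drawn. The pseudocount shrinks the falls of low genes, such as INSIG2 (mean FPKM 4.16 to 0.501 in Ku and 19.8 to 1.80 in Cov). SREBF2 and SCD lie to the right of the medians, as does SREBF1 in Cov. In Ku SREBF1 (-1.07 ± 0.14, SE) is not told from the median. On scales set to other transcripts SREBF1, SREBF2 and SCD turn positive.

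Finally, each member was matched to the active gene whose log2 changes from its own line's DMSO mean lay nearest over the 12 libraries, by Euclidean distance, which is a description of likeness only. SQLE lay nearest to SIN3A (distance 0.250), INSIG1 to PLK4 (0.324), SREBF2 to IDH2 (0.121) and SCD to CRTAP (0.156). HMGCS1 lay nearest to NVL (0.227), IDI1 to ABCE1 (0.195), FDFT1 to ATXN3 (0.184) and SREBF1 to PPP1R14A (0.265). The distances use FPKM + 1, which shrinks the changes of low genes. At 250 nM ATXN3 was left at 27.4% of its DMSO mean in Ku and 30.0% in Cov, against 45.0% and 45.9% for FDFT1. SIN3A was left at 10.3% and 8.45%, against 16.9% and 10.6% for SQLE. Each nearest gene lay closer than any other member. Nearest genes were sought among all other active genes, of 14251 in all, and nearest members among the 8 only. With such unequal pools this order says nothing about likeness within the pathway. Among the members themselves SQLE and INSIG1 lay closest (0.666), with SREBF2 and SCD at the same distance (0.666), and the pair farthest apart was INSIG1 and SCD (4.96).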

How the data were processed

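Poly(A) RNA of 12 libraries, 2 per cell line and dose, was sequenced by the authors, with ERCC spike-ins added by cell count. Reads were aligned to hg19 with HISAT, and the deposited FPKM values were made by the authors with Cuffquant and Cuffnorm and scaled to those spike-ins, with a table for each line. These are not counts, so edgeR, which the study names, was not used and depth is unknown. Samples were grouped from their labels. Active genes (FPKM above 1 in at least 1 library, ERCC rows left out) were analysed as log2(FPKM + 1) in each line with limma 3.58.1 in R 4.3.3 (lmFit, eBayes with trend, 3 groups of 2, two-sided), adjusted by Benjamini-Hochberg over 14251 genes with calls at 0.001 for adjusted p and 0.5 for the absolute log2 fold change. P-values measure the spread between these libraries. The fit was tested on simulated data.

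The 8 genes, the lipid lists, written from general knowledge, and the markers were chosen with earlier results of these data known. Named genes were the 8, genes of those lists, the 2 microRNA rows and the nearest gene to each member. Those given as examples from the lists were picked after their values were seen. Some listed genes enter the counts but are not reported here by name. Alternatives were a pseudocount of 0.1, no minimum, equal-median and median-of-ratios scaling, a replicate block, an adjusted p under 0.05 and each library left out. Sequences come from RefSeq and motifs were searched in Python 3.11.15. Figures were drawn with matplotlib 3.10.9.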

Additional observations from a re-analysis of the deposited data

How the results depend on the processing

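The number of the 8 genes called lower (0 at 50 nM, 7 at 250 nM and 6 between doses in Ku, 7, 7 and 3 in Cov) and of the 42 other pathway genes (2 and 36 in Ku, 35 and 37 in Cov) held within 1.5 times with a pseudocount of 0.1, and moved as follows elsewhere. Equal-median scaling gave 1 member in Ku at 250 nM and 0 between doses, and 0, 2 and 1 in Cov, with 0 and 2 pathway genes in Ku and 0 and 3 in Cov. Median-of-ratios scaling gave 2 and 1 members in Ku and 0, 2 and 1 in Cov, with 0 and 4 pathway genes in Ku and 0 and 7 in Cov. An adjusted p under 0.05, with the same log2 fold change threshold, gave 5 members and 17 pathway genes in Ku at 50 nM, against 40.2% of active genes. With no minimum FPKM the count between doses in Ku was 1, where 13.3% of active genes were called lower. In Ku at 50 nM 0 pathway genes were called in that setting, where 0.0211% of active genes were. Leaving out 1 library gave 0 to 0, 5 to 7 and 1 to 5 members in Ku and 2 to 7, 7 to 8 and 2 to 3 in Cov, and 0 to 0 and 19 to 33 pathway genes in Ku and 12 to 34 and 32 to 40 in Cov. The cause of these changes was not tested.

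Across genes the deviations of same-numbered libraries of a line were hardly correlated (between -0.0703 and 0.0282). A shift shared by a whole library does not show in such a correlation, and the labels do not say whether replicates were paired. The numbers are used here as names of libraries. With the replicate block 1 member (SQLE) and 0 pathway genes were called lower in Ku at 50 nM, against 6.94% of active genes. In Cov 4 members were called at 50 nM and 1 between doses, against 51% and 7.93% of active genes.

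Fold changes that changed sign did so under the scalings to other transcripts, apart from SREBF2 in Ku at 50 nM, whose values with 1 library left out ran from -0.060 to 0.027, and SREBF1 in Cov between doses, from -0.29 to 0.16. Under equal medians the log2 fold changes that turned positive were, in Ku at 50 nM, FDFT1 0.32, HMGCS1 0.13, IDI1 0.095, PMVK 0.070, SCD 0.44, SQLE 0.081, SREBF1 0.044, SREBF2 0.67, at 250 nM, ABCG1 0.66, ACACA 0.79, FADS2 1.26, FASN 0.67, FDFT1 0.81, HMGCS1 0.41, IDI1 0.60, LPL 0.16, LSS 0.93, MBTPS2 0.17, ME1 1.19, MSMO1 0.62, MYLIP 0.24, NPC2 1.69, PMVK 0.83, SCAP 0.72, SCD 1.44, SREBF1 0.69, SREBF2 1.19, STARD4 0.75, TMEM97 0.16, and between doses, FDFT1 0.50, HMGCS1 0.28, IDI1 0.50, SCD 1.00, SREBF1 0.65, SREBF2 0.51. In Cov cells they were, at 50 nM, FDFT1 0.48, IDI1 0.40, PMVK 0.48, SCD 0.62, SREBF1 0.34, SREBF2 0.47, at 250 nM, ABCG1 0.099, ACACA 0.69, FADS2 1.37, FASN 1.36, FDFT1 0.94, HMGCS1 0.23, IDI1 0.21, LPL 0.26, LSS 1.38, ME1 0.90, MYLIP 0.40, NPC2 1.12, PMVK 1.16, SCAP 1.05, SCD 1.30, SREBF1 1.03, SREBF2 1.03, STARD4 1.10, and between doses, FDFT1 0.46, HMGCS1 0.28, SCD 0.68, SREBF1 0.69, SREBF2 0.56. Under median-of-ratios they were, in Ku at 50 nM, FDFT1 0.17, SCD 0.30, SREBF2 0.53, at 250 nM, ABCG1 0.34, ACACA 0.33, FADS2 0.78, FASN 0.16, FDFT1 0.30, IDI1 0.087, LPL 0.10, LSS 0.44, ME1 0.69, MSMO1 0.11, NPC2 1.18, PMVK 0.32, SCAP 0.24, SCD 0.93, SREBF1 0.22, SREBF2 0.67, STARD4 0.28, and between doses, FDFT1 0.13, IDI1 0.14, SCD 0.63, SREBF1 0.31, SREBF2 0.14. In Cov cells they were, at 50 nM, FDFT1 0.29, IDI1 0.21, PMVK 0.29, SCD 0.43, SREBF1 0.18, SREBF2 0.29, at 250 nM, ABCG1 0.00046, ACACA 0.28, FADS2 0.92, FASN 0.90, FDFT1 0.48, LSS 0.95, ME1 0.53, MYLIP 0.11, NPC2 0.66, PMVK 0.71, SCAP 0.62, SCD 0.84, SREBF1 0.63, SREBF2 0.58, STARD4 0.69, and between doses, FDFT1 0.20, HMGCS1 0.022, SCD 0.41, SREBF1 0.45, SREBF2 0.30.

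Depth is unknown, so no counting error is given. The pseudocount bears most on the fold change of INSIG1 in Ku at 250 nM, the lowest level of any member. It bears less on SREBF1 in Ku and Cov and on INSIG1 in Cov, with means of 5.28, 5.93 and 6.66 FPKM at 250 nM. In Ku SREBF1 was left at 43.0% and FDFT1 at 45.0%, though the log2 fold change of SREBF1 was smaller in size (-1.07 against -1.12).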
